A study of Mus musculus with 9 samples.

Results

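The enzymes described here crosslink and hydroxylate collagen, and comprise 10 genes: the lysyl oxidases Lox, Loxl1, Loxl2, Loxl3 and Loxl4, the lysyl hydroxylases Plod1, Plod2 and Plod3, and the prolyl 4-hydroxylase alpha subunits P4ha1 and P4ha2. Every non-control probe named for one of these genes was taken, by gene symbol or RefSeq accession, without regard to its signal. This gave 17 of 39429 probes, all 17 of which were well above background on at least 2 of 9 arrays, and 10 of the 23878 genes tested.

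The arrays measured kidney cortex RNA of mice in 4 groups that differed in genotype and in obstruction. Obstruction was unilateral ureteral obstruction (UUO), a fibrosis model in which the right ureter is tied off, here for 5 days, in animals of 12 to 16 weeks. Wild-type mice gave 2 healthy and 2 UUO arrays, and Notch3-/- mice gave 2 healthy and 3 UUO arrays, where Notch3-/- mice lack the receptor Notch3 in all cells as far as the labels go, and the design text names the unligated left kidney as the comparison tissue. The labels give neither strain nor allele, link no healthy array to the animal of a UUO array, and do not say that replicate arrays are different animals, so the p-values below measure a spread between samples that may be technical.

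Collagen chains are modified in 2 places. Inside the endoplasmic reticulum, prolyl 4-hydroxylase makes the hydroxyprolines that let the triple helix hold at body temperature, and lysyl hydroxylases make the hydroxylysines that carry sugars and set the kind of crosslink. Outside the cell, lysyl oxidases are copper enzymes that oxidise lysine and hydroxylysine side chains of collagen and elastin to aldehydes, which then join into covalent crosslinks, and fibroblasts and myofibroblasts are known as a main source of them in a scarring kidney.

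All values are log2 signals relative to the 75th percentile of the same array, and a difference is a log2 difference with its standard error (SE) from limma. A gene passed the test when its p-value, adjusted by Benjamini and Hochberg over all 23878 genes, was under 0.05. The brightest probe stands for each gene unless another probe is named, and since probes bind unequally, levels are compared between groups and never between genes. In bulk tissue, fewer cells of a type and less RNA per cell cannot be told apart.

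Between 65.3% and 73.2% of the 43020 spots per array were well above background and 0 were saturated, and all 8 proximal tubule markers were well above background on all 9 arrays. Notch3 lay between -0.50 and 0.91 on the wild-type arrays and between -5.39 and -3.63 on the Notch3-/- arrays, although the position of its probe relative to the deleted part is unknown here. Its signal was well above background on all 9 arrays. Group means were -0.38 healthy and 0.79 UUO in wild-type, and -5.19 healthy and -3.89 UUO in Notch3-/- kidneys. Notch3-/- UUO replicates 2 and 3 stood apart: Xist was 0.18 and -0.01 there and at most -5.71 on the other 7 arrays, Ddx3y was -3.80 and -3.67 against at least -0.27, and the adrenal gene Cyp11b1 was 4.69 and 5.15 against at most -4.14. Xist is transcribed in female cells and Ddx3y lies on the Y chromosome, so these 2 arrays had a female and the other 7 a male pattern. Sex pattern thus differed within Notch3-/- UUO and between it and the other groups, and its part in the results was not tested. The summed linear level of 8 adrenal cortex markers was 235 and 295 on these 2 arrays and at most 1.40 elsewhere. For obstruction in Notch3-/- kidneys and for the genotype comparison, counts, medians and the differences the text turns on are also given without them, from a fit that leaves 1 Notch3-/- UUO array and calls 1.63% of all genes in Notch3-/- obstruction. Each of the 5 slides was scanned separately and no slide held both genotypes, so genotype cannot be told apart from slide and scan. In wild-type kidneys the healthy arrays lay on slides 1 and 2 and both UUO arrays on slide 3. No slide held both wild-type states, so obstruction in wild-type kidneys cannot be told apart from slide and scan either. Values with slide as a random block are given below, but that block leaves the wild-type differences unchanged and cannot remove a slide effect from them.

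After obstruction, 4 of the 5 lysyl oxidases were higher in both genotypes. In wild-type kidneys Lox, Loxl1, Loxl2, Loxl3 and Plod3 were higher after 5 days of UUO and P4ha1 was lower, which is 6 of 10 genes against 25.8% of all genes tested. The 5 that rose compare with 14.1% of all genes higher, and the 1 that fell with 11.8% lower. In Notch3-/- kidneys Lox, Loxl1, Loxl2 and Loxl3 were higher and none was lower, which is 4 of 10 genes against 27.2% of all genes tested, with 13.3% of all genes higher and 13.9% lower. The median difference of the 10 genes was 1.04 in wild-type and 0.87 in Notch3-/- kidneys, beside 0.03 and -0.07 over all genes.

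**Figure D1:**
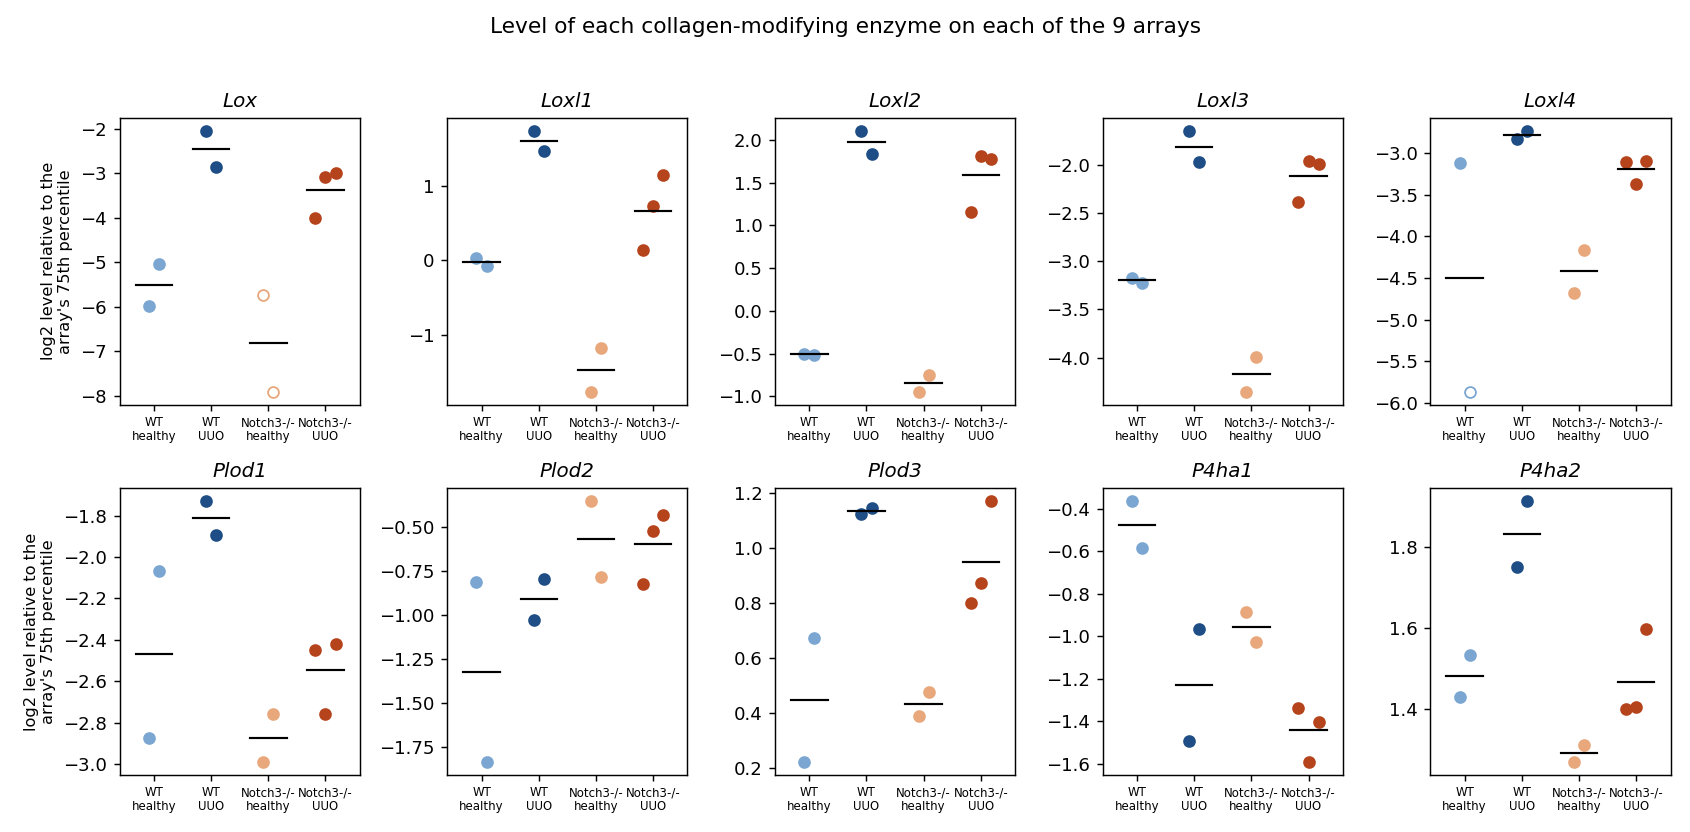
Each panel shows 1 gene, with its log2 level relative to the array's 75th percentile on the vertical axis (each panel has its own scale) and the 4 groups on the horizontal axis. Points are arrays, open points are arrays on which the probe was not well above background, and lines are group means; for Loxl2 all 5 UUO arrays lie at or above 1.16 and all 4 healthy arrays at or below -0.50.

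Lox, the founding lysyl oxidase, acts on both fibrillar collagen and elastin. Its level was -5.99 and -5.03 in wild-type healthy kidneys, -2.05 and -2.86 in wild-type UUO, -5.73 and -7.91 in Notch3-/- healthy and -4.01, -3.09 and -3.00 in Notch3-/- UUO. Both Notch3-/- healthy values were not well above background by either of its 2 probes and are bounds. All UUO arrays lay above all healthy arrays, and the wild-type UUO arrays lay above the Notch3-/- UUO arrays. The wild-type difference was 3.05 ± 0.75 (adjusted p = 0.0285), an 8.30-fold rise. In Notch3-/- kidneys the fitted difference was 3.45 ± 0.69 (adjusted p = 0.0173). Counting each healthy array at no less than its dimmest probe well above background, the level was 5.72-fold higher after UUO. This is no strict minimum, since Lox on healthy replicate 1, at -5.73, lay above that floor of -6.05 without being well above background. The size depends on the background correction, since normexp with an offset of 50 gave 2.08 in wild-type and 1.19 in Notch3-/- kidneys, both still past the threshold. The dimmer Lox probe was well above background on 1 of 2 wild-type healthy arrays, at -4.93, beside -1.45 and -2.11 in wild-type UUO. It was well above background on neither Notch3-/- healthy array, and by the same floor its level was 8.52-fold higher in Notch3-/- UUO, again no strict minimum.

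Loxl1, which is known for tethering to elastic fibres and renewing elastin, was 0.03 and -0.08 in wild-type healthy kidneys and 1.74 and 1.48 in wild-type UUO. It was -1.76 and -1.18 in Notch3-/- healthy kidneys and 0.14, 0.73 and 1.15 in Notch3-/- UUO. By this brighter probe the 4 groups did not overlap, in the order wild-type UUO, Notch3-/- UUO, wild-type healthy, Notch3-/- healthy. The obstruction difference was 1.63 ± 0.34 (adjusted p = 0.0181) in wild-type and 2.14 ± 0.31 (adjusted p = 0.00661) in Notch3-/- kidneys, or 3.09-fold and 4.41-fold. By the dimmer probe Notch3-/- UUO, at -2.29, -2.28 and -1.59, overlapped wild-type healthy, at -2.44 and -2.04. That probe gave obstruction differences of 1.89 ± 0.36 in wild-type and 2.34 ± 0.33 in Notch3-/- kidneys.

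Loxl2, a secreted oxidase of basement membrane collagen that fibrosis studies have used as a drug target, had the smallest adjusted p of the 10 genes in both genotypes. Its level was -0.50 and -0.51 in wild-type healthy, 2.10 and 1.84 in wild-type UUO, -0.94 and -0.75 in Notch3-/- healthy and 1.16, 1.81 and 1.78 in Notch3-/- UUO. UUO arrays lay above healthy arrays in both genotypes, with Notch3-/- UUO replicate 1 the lowest UUO array. The difference was 2.48 ± 0.24 (adjusted p = 0.00168) in wild-type and 2.43 ± 0.22 (adjusted p = 0.0012) in Notch3-/- kidneys, or 5.56-fold and 5.39-fold. Its 3 probes ranged from 2.0 to 3.06 in wild-type and from 1.43 to 2.46 in Notch3-/- kidneys, and all passed.

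Loxl3, an oxidase whose loss disturbs cartilage and palate collagen in mice, was -3.17 and -3.22 in wild-type healthy kidneys and -1.65 and -1.97 in wild-type UUO. It was -4.35 and -3.99 in Notch3-/- healthy kidneys and -2.39, -1.96 and -1.99 in Notch3-/- UUO. The UUO arrays of both genotypes overlapped each other and lay above all healthy arrays, and the Notch3-/- healthy arrays lay below the wild-type healthy arrays. The difference was 1.38 ± 0.21 (adjusted p = 0.00704) in wild-type and 2.06 ± 0.19 (adjusted p = 0.0013) in Notch3-/- kidneys, or 2.61-fold and 4.17-fold.

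Loxl4 is the remaining lysyl oxidase and passed in neither genotype. It was -3.13 and -5.86 in wild-type healthy kidneys, with the lower array not well above background by either probe, and -2.84 and -2.74 in wild-type UUO. In Notch3-/- kidneys it was -4.68 and -4.16 when healthy and -3.11, -3.38 and -3.09 after UUO. By this brighter probe, UUO and healthy arrays of a genotype did not overlap, but the wild-type healthy arrays spanned 2.74 between them. The difference was 1.71 ± 0.77 (95% confidence interval -0.12 to 3.53, adjusted p = 0.145) in wild-type and 1.22 ± 0.70 (interval -0.44 to 2.89, adjusted p = 0.234) in Notch3-/- kidneys. Without wild-type healthy replicate 1 the wild-type difference was 3.08 (adjusted p = 0.00635), and without replicate 2 it was 0.34. The Notch3-/- difference passed when wild-type healthy replicate 1 or replicate 2 was left out (adjusted p = 0.0131 each), since both enter the spread that all groups share. By the dimmer probe, wild-type healthy replicate 1 lay at -3.41, above the wild-type UUO arrays at -3.73 and -3.79. That probe gave differences of 0.82 ± 0.68 in wild-type and 1.01 ± 0.62 in Notch3-/- kidneys, and neither passed.

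Of the lysyl hydroxylases, Plod3 rose in wild-type kidneys. Plod1 hydroxylates lysines in the helix and is the gene of the kyphoscoliotic Ehlers-Danlos syndrome, Plod2 hydroxylates lysines in the telopeptides that set stable pyridinoline crosslinks, and Plod3 also adds sugars to hydroxylysine. Plod3 was 0.22 and 0.67 in wild-type healthy, 1.13 and 1.15 in wild-type UUO, 0.39 and 0.48 in Notch3-/- healthy and 0.80, 0.87 and 1.17 in Notch3-/- UUO. All 5 UUO arrays lay above all 4 healthy arrays. The difference was 0.69 ± 0.20 (adjusted p = 0.0438) in wild-type kidneys, a 1.61-fold rise, and 0.52 ± 0.18 in Notch3-/- kidneys, which did not pass (adjusted p = 0.0737).

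Plod1 was -2.88 and -2.07 in wild-type healthy kidneys, -1.73 and -1.89 in wild-type UUO, -2.99 and -2.76 in Notch3-/- healthy and -2.45, -2.76 and -2.42 in Notch3-/- UUO. The wild-type groups did not overlap, while the Notch3-/- groups overlapped at UUO replicate 2 and healthy replicate 2. The differences of 0.66 ± 0.28 (adjusted p = 0.122) and 0.33 ± 0.25 (adjusted p = 0.365) did not pass, and in Notch3-/- kidneys its dimmer probe gave -0.28 ± 0.20. Without wild-type healthy replicate 2 the wild-type difference was 1.06 (adjusted p = 0.0273).

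Plod2 was -0.81 and -1.84 in wild-type healthy, -1.03 and -0.79 in wild-type UUO, -0.35 and -0.78 in Notch3-/- healthy and -0.83, -0.52 and -0.43 in Notch3-/- UUO. Healthy and UUO arrays overlapped in both genotypes. Its differences were 0.41 ± 0.34 (interval -0.40 to 1.23) in wild-type and -0.03 ± 0.31 (interval -0.77 to 0.72) in Notch3-/- kidneys, with adjusted p of 0.415 and 0.959.

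P4ha1 was the 1 gene of the 10 that fell, in wild-type kidneys. It encodes the alpha subunit of the most widespread prolyl 4-hydroxylase, which works as a tetramer with the protein disulfide isomerase P4hb. Its level was -0.37 and -0.59 in wild-type healthy kidneys, -1.49 and -0.97 in wild-type UUO, -0.88 and -1.03 in Notch3-/- healthy and -1.34, -1.59 and -1.40 in Notch3-/- UUO. Within each genotype the UUO arrays lay below the healthy arrays. In wild-type kidneys P4ha1 fell by 0.75 ± 0.21 (adjusted p = 0.0379), to 0.593 of the healthy level. The Notch3-/- difference was -0.49 ± 0.19 and did not pass (adjusted p = 0.0957).

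P4ha2, the alpha subunit of the second prolyl 4-hydroxylase, was 1.43 and 1.53 in wild-type healthy kidneys, 1.75 and 1.91 in wild-type UUO, 1.27 and 1.31 in Notch3-/- healthy and 1.40, 1.40 and 1.60 in Notch3-/- UUO. UUO arrays lay above healthy arrays within each genotype, but the differences were small, 0.35 ± 0.14 (adjusted p = 0.101) and 0.18 ± 0.12 (adjusted p = 0.325). The wild-type difference passed with quantile normalization (0.48, adjusted p = 0.0397) and in the authors' value table (0.51, adjusted p = 0.0348).

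**Figure D2:**
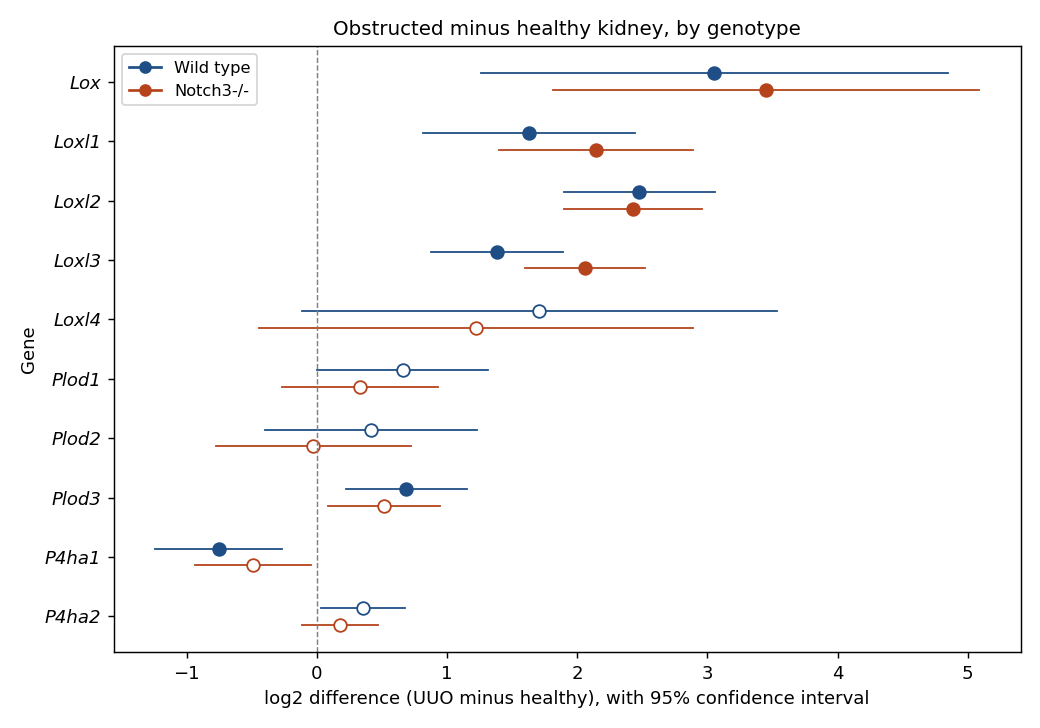
The horizontal axis is the log2 difference, UUO minus healthy, with its 95% confidence interval from limma, for the 10 genes on the vertical axis and for each genotype; filled points passed at an adjusted p under 0.05. Lox, Loxl1, Loxl2 and Loxl3 lie to the right in both genotypes, from 1.38 to 3.45, while P4ha1 lies at -0.75 and -0.49.

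UUO and healthy arrays did not overlap for 9 of 10 genes in wild-type kidneys, where 64.6% of all genes did not overlap, and for 8 of 10 in Notch3-/- kidneys, against 61.3% of all genes. With so few arrays per group most genes separate in this way, so the counts say little about these 10. Averaged over both genotypes, Lox, Loxl1, Loxl2, Loxl3 and Plod3 rose and P4ha1 fell, 6 of 10 genes against 43% of all genes tested, with 5 higher against 20.8% and 1 lower against 22.2%. The averaged differences were 3.25 ± 0.51 (adjusted p = 0.00332) for Lox, whose Notch3-/- healthy values are bounds, 1.88 ± 0.23 (0.00151) for Loxl1, 2.45 ± 0.16 (0.00017) for Loxl2 and 1.72 ± 0.14 (0.000373) for Loxl3. Plod3 averaged 0.60 ± 0.13 (adjusted p = 0.0111) and P4ha1 -0.62 ± 0.14 (adjusted p = 0.0117). Across both genotypes all UUO arrays were separate from all healthy arrays for 5 of 10 genes, the ones that rose, against 31.8% of all genes.

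The calls within one genotype rest on few arrays. In wild-type kidneys Loxl2 passed without any single array, with differences of 2.35 to 2.61. Loxl3 missed without wild-type UUO replicate 1 (1.23, adjusted p = 0.0584), and Lox and Loxl1 missed without any 1 of the 4 wild-type arrays, at 2.57 to 3.53 (highest adjusted p = 0.155) and 1.5 to 1.76 (highest adjusted p = 0.11). Plod3 kept its call in 2 and P4ha1 in 2 of the 9 fits without 1 array, with differences of 0.46 to 0.91 and -1.02 to -0.49. With slide as a random block, which called 10.1% of all genes in place of 25.8%, only Loxl2 and Loxl3 passed in wild-type kidneys (adjusted p = 0.00792 and 0.0269), and Lox, Loxl1, Plod3 and P4ha1 had adjusted p of 0.07, 0.0627, 0.107 and 0.11.

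In Notch3-/- kidneys Loxl2 and Loxl3 passed without any single array, at 2.32 to 2.64 and 1.88 to 2.24. Lox missed without Notch3-/- UUO replicate 2 (3.32, adjusted p = 0.0637) or 3 (3.27, 0.0644) or healthy replicate 2 (2.36, 0.0689), and Loxl1 missed without healthy replicate 1 (1.85, 0.0556). On the 1 slide that held both Notch3-/- groups, with a single healthy array, the differences were 2.36 for Lox, 2.43 for Loxl1, 2.52 for Loxl2 and 2.24 for Loxl3, of which Loxl3 passed (adjusted p = 0.0429), in a fit that called 3.3% of all genes. With slide as a random block all 4 passed, beside 27.3% of all genes. With Notch3-/- UUO replicates 2 and 3 left out, the arrays that stood apart, the differences were 2.81, 1.61, 2.0 and 1.79, and Loxl2 alone passed (adjusted p = 0.0375), beside the 1.63% of all genes. Averaged over both genotypes, Lox, Loxl1, Loxl2 and Loxl3 passed without those 2 arrays as well, at 2.93, 1.62, 2.24 and 1.59, beside 23.3% of all genes, while Plod3 (0.53, adjusted p = 0.0735) and P4ha1 (-0.57, adjusted p = 0.0882) did not.

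Notch3-/- UUO replicate 1 was the lowest of its 3 arrays for 7 of the 10 genes. It was the lowest for 41.1% of all genes with a value on the 3 arrays and for 80.9% of the genes that rose in Notch3-/- UUO. The summed level of the 8 proximal tubule markers was 412 on this array and 137 and 149 on the other two. Its part in the result was not tested.

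Of the 10 genes, 6 carry several probes, which allows the direction to be read more than once. In wild-type kidneys 15 of 17 probes were higher after UUO and 2, both of P4ha1, were lower; 9 passed upwards and 2 downwards, against 25.3% of all probes passing in either direction. In Notch3-/- kidneys 13 were higher and 4 lower, and 8 passed upwards, against 26% of all probes. Without Notch3-/- UUO replicates 2 and 3 the split was again 13 and 4, and 2 passed, against 1.46% of all probes. Probes of a gene differed in sign for none of the 6 genes in wild-type and for Plod1 alone in Notch3-/- kidneys. The second P4ha1 probe fell by 0.93 ± 0.26 in wild-type kidneys (adjusted p = 0.0409).

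**Figure D3:**
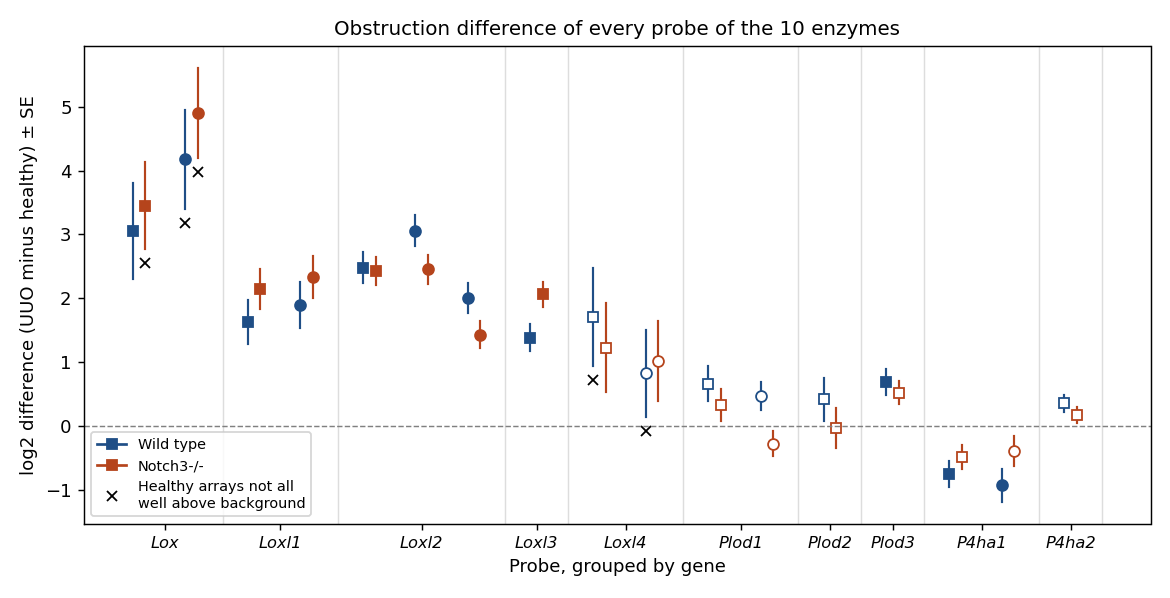
Each point is 1 of the 17 probes, grouped by gene along the horizontal axis, with the log2 difference (UUO minus healthy) and its SE on the vertical axis for both genotypes. Squares are the probe that stands for the gene, circles its other probes, filled symbols passed, and crosses mark values whose healthy arrays were not all well above background (Lox and Loxl4); all 8 probes of Lox, Loxl1, Loxl2 and Loxl3 lie above 1 in both genotypes.

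Promoter sequences are shown for P4ha1 and Plod3, which moved in opposite directions in wild-type kidneys. Of the 10 genes, 5 had an entry in the RefSeq promoter table of build GRCm38.p6 (Plod1, Plod3, P4ha1, P4ha2 and Loxl4), and P4ha1 and Plod3 are the ones among them that passed. Each is the 250 bases before the annotated start, read 5′ to 3′ on the + strand of the gene, at chr10:59323046-59323295 for P4ha1 and chr5:136986769-136987018 for Plod3. Capitals mark matches to ACGTG or GCGTG, the core letters of the element bound by hypoxia-inducible factors, or to their reverse complements CACGT and CACGC.
P4ha1: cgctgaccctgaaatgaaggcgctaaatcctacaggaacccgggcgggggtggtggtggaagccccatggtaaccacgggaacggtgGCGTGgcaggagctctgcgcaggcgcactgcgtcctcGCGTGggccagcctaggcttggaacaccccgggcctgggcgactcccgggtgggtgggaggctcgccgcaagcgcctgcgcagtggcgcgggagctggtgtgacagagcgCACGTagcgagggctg
Plod3: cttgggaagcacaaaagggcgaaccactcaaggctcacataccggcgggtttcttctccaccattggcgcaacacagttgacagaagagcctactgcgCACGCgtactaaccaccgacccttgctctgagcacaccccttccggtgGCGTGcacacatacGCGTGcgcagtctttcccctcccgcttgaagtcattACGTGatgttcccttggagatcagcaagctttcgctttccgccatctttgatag
P4ha1 held 1 ACGTG, 16 bases before the start, and 2 GCGTG, at 163 and 126. Plod3 held 1 ACGTG, 54 bases before the start, and 3 GCGTG, at 152, 104 and 90. No match overlapped another. On both strands, ACGTG was found in 16.6% and GCGTG in 28.2% of the 32851 promoter windows of the same length, and P4ha1 and Plod3 are rich in G and C at 69.6% and 55.6%. P4ha2 also held both motifs, and Plod1 and Loxl4 held GCGTG alone. The AP-1 motif TGANTCA (in 6.7% of windows), the TEAD motif GGAATG (12.6%) and the Smad motif CAGACA (17.1%) were in none of the 5 windows, on either strand. TATAAA, in 12.4% of windows, was in that of Plod1.

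Several prolyl and lysyl hydroxylases and lysyl oxidases are known targets of hypoxia-inducible factors, so 20 other hypoxia-inducible genes were read beside them. Of the 19 tested, 4 rose and 5 fell in wild-type kidneys and 3 rose and 6 fell in Notch3-/- kidneys, with medians of -0.22 and -0.37. Vegfa, the angiogenic factor, fell by 1.46 ± 0.14 in wild-type and by 0.74 ± 0.13 in Notch3-/- kidneys, and the mitophagy receptor Bnip3 fell by 0.95 ± 0.16 and by 1.01 ± 0.15. The glycolytic regulator Pfkfb4 rose by 0.87 ± 0.14 and 0.64 ± 0.13. When Notch3-/- UUO replicates 2 and 3 were left out, the Notch3-/- median was -0.23 and by limma 0 of the 19 passed, with 5 at an unadjusted p under 0.05; Vegfa was -0.59, Bnip3 -0.83 and Pfkfb4 0.52. Named after their values were seen, the others that rose were Ddit4, Ankrd37 and Slc2a3 in wild-type and Slc2a3 and Ddit4 in Notch3-/- kidneys, and the others that fell in wild-type kidneys were Higd1a, Car9 and Pdk1.

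The collagens that these enzymes act on were read in the same comparisons. Of 10 fibrillar collagen genes tested, 8 rose and 1 fell in wild-type kidneys and 5 rose and 1 fell in Notch3-/- kidneys, with medians of 2.36 and 1.91. Col1a1 and Col1a2, the chains of type I collagen, rose by 4.65 ± 0.36 and 3.69 ± 0.27 in wild-type and by 3.87 ± 0.33 and 3.13 ± 0.25 in Notch3-/- kidneys. Col3a1, of type III collagen, rose by 4.35 ± 0.54 and 4.01 ± 0.50, and Col5a1, which starts fibrils, by 3.04 ± 0.33 and 3.06 ± 0.30. The 5 that rose in Notch3-/- kidneys were these 4 and Col5a3. With Notch3-/- UUO replicates 2 and 3 left out, the Notch3-/- median was 1.26, and Col1a1 (3.51, adjusted p = 0.0471) and Col1a2 (2.74, 0.0378) passed while Col3a1 (3.39, 0.0993) and Col5a1 (2.66, 0.0568) did not. The 1 that fell in both was Col27a1 (-1.91 ± 0.20 and -0.81 ± 0.18), named after its values were seen.

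The proteins of elastic fibres, a further substrate of lysyl oxidases, rose in 10 of 17 genes in wild-type and 13 of 17 in Notch3-/- kidneys, and none fell, with medians of 2.29 and 2.28. Efemp2, which brings Lox to tropoelastin, rose by 2.40 ± 0.30 and 2.59 ± 0.27. Fbn1, the microfibril protein fibrillin-1, rose by 2.84 ± 0.33 and 2.78 ± 0.30, and Fbln2 by 3.13 ± 0.34 and 2.36 ± 0.31. Without Notch3-/- UUO replicates 2 and 3 the Notch3-/- median was 1.71 and 2 of the 17 passed, Efemp2 (2.12, adjusted p = 0.04998) and Fbln2 (1.71, 0.0431), with Fbn1 at 2.60 (0.0806). Elastin itself, Eln, passed within neither genotype with all arrays, at 0.84 ± 0.32 (adjusted p = 0.0996) and 0.65 ± 0.29 (adjusted p = 0.142). Averaged over both genotypes Eln rose by 0.75 ± 0.22 (adjusted p = 0.0312), where 15 of the 17 genes rose. Without Notch3-/- UUO replicates 2 and 3 its Notch3-/- difference was 0.20.

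Among 28 other collagen-processing genes tested of 30, 8 rose and 3 fell in wild-type and 10 rose and 4 fell in Notch3-/- kidneys, with medians of 0.46 and 0.34. Adamts2, a proteinase that removes the amino propeptide of procollagen, rose by 2.80 ± 0.38 and 3.02 ± 0.34, and Bmp1, which removes the carboxy propeptide and activates the Lox precursor, by 2.43 ± 0.29 and 1.93 ± 0.26. Of the 6 procollagen proteinases in the list, 4 were tested: Adamts2, Bmp1 and, named after their values were seen, Adamts14 and Tll1. Adamts14 was 0.65 ± 0.22 (adjusted p = 0.0679) in wild-type and rose by 0.69 ± 0.20 (0.0445) in Notch3-/- kidneys, and Tll1 was 0.07 ± 0.27 and -0.31 ± 0.25. Fkbp10, a collagen chaperone that Plod2 needs, rose by 2.67 ± 0.36 and 2.42 ± 0.33. The collagen chaperone Serpinh1 rose by 1.21 ± 0.25 (adjusted p = 0.0162) and 1.16 ± 0.22 (0.0161). When Notch3-/- UUO replicates 2 and 3 were left out, the Notch3-/- median was 0.10 and by limma 0 of the 28 passed, with 8 at an unadjusted p under 0.05; Adamts2 was 2.68, Bmp1 1.45, Fkbp10 1.82, Serpinh1 0.77 and P4hb -0.52. P4hb, the partner of P4ha1 and P4ha2, was -0.60 ± 0.23 in wild-type kidneys (adjusted p = 0.0911) and, with all arrays, fell by 0.74 ± 0.21 in Notch3-/- kidneys (0.0396). Named after their values were seen, the 3 that fell in wild-type kidneys were Colgalt2, Ero1a and Mia3, and the 4 that fell in Notch3-/- kidneys were Colgalt2, Ero1a, P4hb and Ppib.

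Of 20 genes of the transforming growth factor beta response, 14 rose in wild-type and 13 in Notch3-/- kidneys and none fell, with medians of 1.73 and 1.75. Inhba, an activin subunit, rose by 4.23 ± 0.46 and 4.21 ± 0.42, the matrix protein gene Tgfbi by 2.12 ± 0.28 and 2.26 ± 0.25, and the growth factor Tgfb1 by 1.78 ± 0.25 and 2.0 ± 0.23. With Notch3-/- UUO replicates 2 and 3 left out, the Notch3-/- median was 1.43 and by limma 0 of the 20 passed, with 9 at an unadjusted p under 0.05; Inhba was 4.29 (adjusted p = 0.051), Tgfbi 1.96 and Tgfb1 1.72. Ltbp2 belongs to this list and to the elastic fibre list.

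Markers of fibroblasts and myofibroblasts moved with the same comparisons. Of 10 such markers, 6 rose in wild-type and 10 in Notch3-/- UUO. Their summed linear level was 20.0 to 29.4 in wild-type healthy, 62.6 to 90.8 in wild-type UUO, 9.09 to 12.3 in Notch3-/- healthy and 40.6 to 50.7 in Notch3-/- UUO. All 10 were well above background on all arrays except the Notch3-/- healthy ones, where 8 and 9 were. Of 8 macrophage markers tested, 7 rose in both genotypes, and Itgam, named after its values were seen, fell by 0.92 in Notch3-/- kidneys (adjusted p = 0.0202). Tubule markers moved the other way. Of 8 proximal tubule markers 5 fell in wild-type and 6 in Notch3-/- kidneys, with medians of -2.14 and -1.85, and of 9 markers of the loop, distal tubule and collecting duct 7 and 6 fell, with medians of -2.40 and -1.39. The summed level of the proximal tubule markers was 656 to 893 in wild-type healthy, 156 to 243 in wild-type UUO, 748 to 814 in Notch3-/- healthy and 137 to 412 in Notch3-/- UUO. Without Notch3-/- UUO replicates 2 and 3, 1 of 10 fibroblast markers, 3 of 8 macrophage markers and, by limma, 0 of 17 tubule markers passed in Notch3-/- kidneys, with 8, 8 and 7 at an unadjusted p under 0.05, and the medians were 2.06 for fibroblast, 3.61 for macrophage, -0.94 for proximal tubule and -0.80 for loop, distal tubule and collecting duct markers. The part of any of these cell types in the rise of the lysyl oxidases, or in the falls of P4ha1 and P4hb, was not tested.

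Notch3-/- and wild-type kidneys were next compared at the same state, which the study posed as the question of what Notch3 loss does in the obstructed kidney. In UUO kidneys none of the 10 genes passed, against 0.289% of all genes, with adjusted p from 0.218 to 0.812. By limma 3 of the 10 had an unadjusted p under 0.05, and so did 4021 of 23878 genes. The differences, Notch3-/- minus wild-type, were below 0 for 9 of 10 genes, where 49.8% of all genes were below 0, with a median of -0.38 beside 0.00 over all genes. Loxl1 was -0.94 ± 0.31 (interval -1.68 to -0.19, adjusted p = 0.218), Plod1 -0.73 ± 0.25 (interval -1.33 to -0.13, adjusted p = 0.226) and P4ha2 -0.36 ± 0.12 (interval -0.66 to -0.07, adjusted p = 0.223). Lox was -0.91 ± 0.69 (interval -2.54 to 0.73), Loxl2 -0.39 ± 0.22 (interval -0.92 to 0.14) and Loxl3 -0.30 ± 0.19 (interval -0.76 to 0.16). Plod2 was the gene above 0, at 0.32 ± 0.31.

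UUO arrays of both genotypes did not overlap for 6 of 10 genes (Lox, Loxl1, Loxl2, Loxl4, Plod1 and P4ha2), against 43.7% of all genes, and in each the Notch3-/- arrays were lower. The dimmer Loxl1 probe gave -1.70 ± 0.33 (adjusted p = 0.0962), and the dimmer Loxl2 probes -0.77 ± 0.23 (0.187) and -0.61 ± 0.21 (0.235). Of the 17 probes, 16 were below 0 and 1 above, and none passed, against 0.249% of all probes. Plod1 passed in 1 alternative, a fit that weights the arrays (-0.76, adjusted p = 0.0264), which called 4159 genes against 69 without the weights. That fit gave the largest weights to Notch3-/- UUO replicates 2 and 3 (2.42 and 2.69), the arrays that stood apart, and the smallest to replicate 1 (0.347). When Notch3-/- UUO replicates 2 and 3 were left out, by limma none of the 10 genes and 0 of all genes passed, with 2 of the 10 and 3417 of all genes at an unadjusted p under 0.05. Differences were then below 0 for 9 of the 10, with Loxl1 at -1.47 ± 0.30 (adjusted p = 0.198), Plod1 at -0.64 ± 0.37, P4ha2 at -0.43 ± 0.18 and Loxl2 at -0.81 ± 0.20.

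In healthy kidneys none of the 10 genes passed, against 0.511% of all genes, with adjusted p from 0.106 to 0.981. By limma 2 of the 10 had an unadjusted p under 0.05, beside 4271 of all genes. Differences were below 0 for 8 of 10 genes and for 44.1% of all genes, with a median of -0.37 beside 0.06. Loxl3 was -0.98 ± 0.21 (interval -1.48 to -0.47, adjusted p = 0.106) and Loxl1 -1.45 ± 0.34 (interval -2.27 to -0.63, adjusted p = 0.12). The dimmer Loxl1 probe was -2.15 ± 0.36 (adjusted p = 0.0698). Plod2 was above 0, at 0.76 ± 0.34 (adjusted p = 0.31). Healthy arrays of the genotypes did not overlap for 6 of 10 genes, against 45.4% of all genes.

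**Figure D4:**
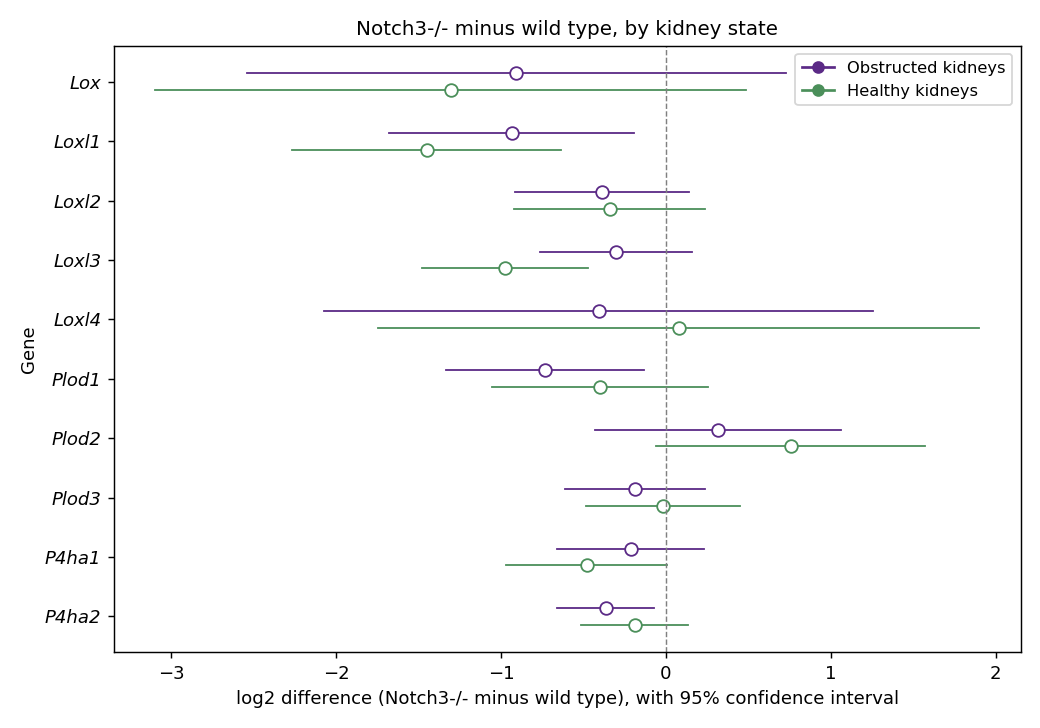
The horizontal axis is the log2 difference, Notch3-/- minus wild-type, with its 95% confidence interval, for the 10 genes on the vertical axis in obstructed and in healthy kidneys. All points are open, since none passed; Loxl1 lies at -0.94 and -1.45 and Plod2 at 0.32 and 0.76.

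Beside these, the 10 fibroblast and myofibroblast markers had median differences between genotypes of -0.95 in UUO and -1.42 in healthy kidneys, with none passing. The sums given above did not overlap between genotypes in either state. The 7 adipocyte markers had sums of 12.1 and 108 in wild-type healthy, 34.2 and 38.7 in wild-type UUO, 2.77 and 96.5 in Notch3-/- healthy and 6.09 to 69.1 in Notch3-/- UUO. Of them 1 passed between genotypes, Lep, which was lower in Notch3-/- kidneys in both states and well above background on 2 arrays. In wild-type UUO Lep was -7.45 and -7.40, under the lowest signal well above background on those arrays (-6.20 and -5.78). Its UUO difference thus compares values that were not well measured. Smooth muscle and pericyte markers summed to 1.60 to 2.11 in Notch3-/- and 2.49 to 4.87 in wild-type healthy kidneys, and to 2.31 to 2.57 and 3.47 to 4.17 in UUO kidneys. Endothelial markers summed to 6.42 to 7.20 in Notch3-/- and 9.22 to 11.7 in wild-type healthy kidneys, and to 6.16 to 7.01 and 8.66 to 9.21 in UUO kidneys. The sum of the loop, distal tubule and collecting duct markers was higher in Notch3-/- kidneys. It was 223 to 270 against 142 to 144 when healthy and 137 to 177 against 90.7 to 91.4 after UUO. These sums rest mostly on Umod, at 7.57 and 7.87 against 6.72 and 6.83 when healthy. None of the 9 markers passed in either state, and Aqp2 in healthy (-0.57) and Pvalb in UUO kidneys (-0.06) were lower in Notch3-/- kidneys. Of the 11 marker lists, 3 (fibroblast, smooth muscle and endothelial) thus had lower and 1 higher sums in Notch3-/- kidneys in both states without overlap. Of all single genes, 45.4% did not overlap between genotypes in healthy and 43.7% in UUO kidneys, so this count says little. No marker of these lists passed, and some went the other way, such as the pericyte marker Cspg4 (0.22 healthy and 0.01 UUO). The part of any of these cell types in the differences was not tested.

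The response to obstruction was then compared between genotypes as a difference of differences, Notch3-/- minus wild-type. By limma no gene of the 23878 passed, so 0% of all genes stands beside 0 of the 10, and none of the 10 had an unadjusted p under 0.05, beside 1703 of all genes. Loxl3 came closest, at 0.67 ± 0.29 (interval -0.01 to 1.36, adjusted p = 0.701). Loxl2 was -0.05 ± 0.33 (interval -0.83 to 0.74), Loxl1 0.51 ± 0.46 (interval -0.59 to 1.62) and P4ha1 0.27 ± 0.28 (interval -0.40 to 0.93). The dimmer Loxl2 probes gave -0.60 ± 0.33 and -0.58 ± 0.31, the dimmer Plod1 probe -0.75 ± 0.29 and the dimmer P4ha1 probe 0.54 ± 0.35. Of the 17 probes 8 were above 0 and 9 below, and none passed, against 0% of all probes. Differences were below 0 for 6 of 10 genes, and for 57% of all genes. With Notch3-/- UUO replicates 2 and 3 left out, they were below 0 for 8 of 10 genes, none passed or had an unadjusted p under 0.05 by limma, and Loxl3 was 0.40 ± 0.32 and Loxl2 -0.47 ± 0.26. For Lox the interval of -2.03 to 2.83 leaves a response several-fold larger or smaller in either genotype within the error. That Plod3 and P4ha1 passed in wild-type and not in Notch3-/- kidneys therefore shows no difference between them: theirs were -0.17 ± 0.27 and 0.27 ± 0.28.

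The genes whose profiles lay nearest to each enzyme were sought among 16563 named genes, by the root mean square difference over the 9 arrays after centring each gene on its own mean. The nearest to Loxl2 was Clca3a2 (0.0603), followed by Tubb6 (0.14) and Fblim1 (0.144), beside a spread of Loxl2 itself of 1.23. Loxl3 lay nearest to Nid1 (0.107, own spread 0.922), the basement membrane protein nidogen-1, then Calhm2 and Man1c1. Loxl1 lay nearest to Cfhr2, B3gnt9 and Mxra8 (0.169 to 0.186, own spread 1.11), and no gene came closer to Lox than Ccdc33 at 0.53 (own spread 1.79), then Btbd17 and Pglyrp2. Loxl4 lay nearest to Ggta1 (0.25), Hacd4 and Macc1.

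Among the hydroxylases the own spreads were 0.199 to 0.427, so short distances mean less. Plod1 lay nearest to Clec4g (0.111), Ddn and Plekhf1, Plod2 to Tug1 (0.13), Zbtb37 and Gja5, and Plod3 to Rpusd1 (0.0782), Zfp275 and Isyna1. P4ha1 lay nearest to Pcyox1l (0.11), Pik3ca and Cct6a, and P4ha2 to Mrgbp (0.0696), Ensa and Pon2. Without Notch3-/- UUO replicates 2 and 3, 12 of these 30 neighbours were again among the 3 nearest, including Clca3a2 for Loxl2 and Nid1 for Loxl3, and none of those of Plod3 was. The 9 arrays share groups, slides and scans, so these are descriptions of likeness on these arrays.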

How the data were processed

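RNA of kidney cortex was labelled with Cy3 and hybridised to 9 Agilent one-colour arrays. Per the file headers, spots were read with Feature Extraction 10.7.3.1 (the submitters' processing notes name 10.5), and the processed signal is an intensity, background-subtracted and not normalized between arrays. The authors' deposited value table holds log2 values, normalized by a method that the sources used here do not give; column medians were 7.02 to 7.05. It is not centred per gene and served as an alternative.

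Outlier spots, 117 to 204 on an array, were dropped. Each processed signal was put on the log2 scale, the 75th percentile over an array's 43020 non-control spots was subtracted, and repeat spots were averaged into 1 value per probe. A probe stayed (29336 of 39429) if 2 or more arrays had it well above background. Accessions were matched to a RefSeq table of GRCm38.p6, which named 27234 probes; the array grid is on mm9, so probe coordinates are not printed. Each gene was read from its brightest probe. With limma 3.58.1 (R 4.3.3) the means of the 4 groups were fitted over all 9 arrays, leaving 5 residual degrees of freedom, with Benjamini-Hochberg adjustment. The number of arrays limits the precision. In simulated data, 200 of 23878 genes were changed, fewer than passed for obstruction here. Log2 changes of 1 were recovered in 0% for obstruction within a genotype, between genotypes and for the difference of responses. Log2 changes of 2 were recovered in 65% to 70.5%, 67.5% to 72.5% and 37% of these. For obstruction averaged over genotypes, 44% and 86% were recovered. That none passed between genotypes therefore does not show that log2 differences of 1 are absent.

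The arrays lay on 5 slides: wild-type UUO on slide 3, wild-type healthy on slides 1 and 2, Notch3-/- UUO and healthy replicate 1 on slide 4, Notch3-/- healthy replicate 2 on slide 5. The 10 genes, the lists and the motifs were chosen with earlier results of these data known. All 10 genes were named, with up to 3 genes of each list by smallest adjusted p in either obstruction comparison, P4hb, Serpinh1, Col1a1, Col1a2, Col3a1 and Eln, and the 3 nearest profiles per gene. Alternatives were quantile normalization, normexp, the authors' table, other probe filters and summaries, slide and replicate blocks, trended moderation, array weights, fits to the compared groups alone and leaving out each array. Chosen after seeing the data were the fit without Notch3-/- UUO replicates 2 and 3, the dimmest probe of each gene and a crossed replicate block. In fits that leave 1 array in a group, that array is assumed to vary like the others.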

Additional observations from a re-analysis of the deposited data

How the results depend on the processing

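Lox, Loxl1, Loxl2 and Loxl3 passed in all 22 alternatives for obstruction averaged over genotypes, at 1.62 to 2.11 for Loxl1, 2.24 to 2.76 for Loxl2 and 1.10 to 1.81 for Loxl3. Lox was 1.63 to 3.90 over the 21 that keep its brighter probe; its dimmer probe was well above background on 1 of 4 healthy arrays and gives no exact difference. Loxl2 passed in all 23 within wild-type kidneys (2.35 to 3.06). The 6 genes that passed in wild-type kidneys became 2 with slide as a random block and 3 with array weights or without Notch3-/- UUO replicates 2 and 3, where the share of all genes called went from 25.8% to 10.1%, 20% and 22.9%, and 1 to 6 when 1 array was left out (5.39% to 31.2% of all genes; 1 and 5.39% without wild-type UUO replicate 1). The 4 of Notch3-/- kidneys became 1 on the slide with both groups and 1 without UUO replicates 2 and 3, where the share of all genes went from 27.2% to 3.3% and 1.63%, and 3 to 6 when 1 array was left out (5.11% to 36.2% of all genes). Between genotypes in UUO, array weights gave 1 gene against 0; in healthy kidneys and for the difference of responses every alternative gave 0.

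Replicate numbers were not taken to pair the arrays, since no label ties a number to an animal. Over genes, deviations of same-numbered healthy and UUO arrays correlated with r = 0.0974 in wild-type and 0.157 and 0.0700 in Notch3-/- kidneys, and those of arrays of different genotypes with r from -0.210 to 0.0368. The replicate block gave 3 genes in wild-type, 3 in Notch3-/- and 5 averaged over genotypes, beside 10.8%, 3.86% and 27% of all genes, and 0 in the other comparisons, and the crossed replicate block gave 3, 3, 6 and 0, beside 21.8%, 12.1% and 35% of all genes in the first 3. Normexp shifted the median of all genes to -0.23 in Notch3-/- obstruction, and Lox and Loxl3 remained above it.

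Signs changed 35 times, for 0 of the differences that passed. In Notch3-/- obstruction Plod1 was -0.28 by its dimmest probe and Plod2 0.070 with array weights, and -0.24 to 0.19 without 1 array. Without 1 array Plod2 was -0.096 to 0.92 in wild-type kidneys and -0.061 to 0.45 averaged. Between genotypes in UUO, Plod3 was 0.0079 with normexp, and P4ha1 -0.48 to 0.049 without 1 array. In healthy kidneys Lox was 0.13 and Plod3 0.13 with normexp, Plod3 0.14 in the authors' table, Loxl4 -0.37 by the mean of its probes and -0.82 by its dimmest, and Plod1 0.14 by its dimmest probe. Without 1 array, Loxl4 was -1.29 to 1.45, Plod1 -0.81 to 0.0028 and Plod3 -0.24 to 0.21. For the difference of responses, Lox was -0.89 with normexp, -0.22 in the authors' table and -0.25 without Notch3-/- UUO replicates 2 and 3, where Loxl1 was -0.019; Loxl2 was 0.13 with array weights and Loxl4 0.19 by its dimmest probe. Without 1 array, Lox was -0.69 to 1.49, Loxl2 -0.18 to 0.17, Loxl4 -1.85 to 0.89, Plod1 -0.74 to 0.074, Plod2 -0.95 to 0.070 and Plod3 -0.40 to 0.054. The cause was not tested. Signal limits Lox in Notch3-/- healthy kidneys and Loxl4 on 1 wild-type healthy array, which were not well above background.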
